A study of Mus musculus with 6 samples.

Results

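Late maturation of cultured limb cells was followed by setting whole Day 10 cultures against whole Day 7 cultures of the Digits in a Dish (DID) system. The comparison was defined by the library titles alone: Day 10 replicates A and B against Day 7 replicates A and B. These are 4 of the 6 single-cell RNA libraries of the series. The 2 Day 2 libraries entered the estimate of the spread, the filter that set which genes were tested and the scaling factors. With all 6 libraries 18988 genes were tested, and with only the 4 libraries 18211. All cultures were grown in the same way from the mesenchyme of the distal-most forelimb of E11.5 wild-type CD-1 mouse embryos, pooled over limbs, freed of their matrix by enzymes, plated at high density and fed daily with serum-containing medium. No allele, drug or added growth factor separated the groups, and each replicate was a separate culture. Day 7 and Day 10 differed by the time in culture. Any difference in dissociation, capture or library preparation between the time points cannot be told apart from time in culture. After limits on depth, gene number and mitochondrial share per barcode, 43140 of the 69311 cells of the series entered: 13485 and 12202 at Day 7 (replicates A and B) and 8701 and 8752 at Day 10. Unique molecular identifiers (UMIs) were summed per library, so the library and not the cell was the replicate, and pairs of values below give replicate A and then replicate B.

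In such cultures limb mesenchyme condenses and forms cartilage, the template on which bone is later built. Chondrocytes under the transcription factor Sox9 lay down a matrix of type II collagen and aggrecan, then enlarge (hypertrophy), switch to type X collagen and let the matrix mineralize, while Runx2 and Sp7 drive osteoblasts, which make type I collagen and bone proteins. Around cartilage, the same mesenchyme gives tendon, joint surface, perichondrium and other fibrous tissue. Cells that reach the limb from blood, muscle precursors, nerve or ectoderm could be present only as far as they were carried over from the embryo.

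Depth differed between the time points. The Day 7 libraries held 213667142 and 204993192 UMIs in the cells kept and the Day 10 libraries 254463501 and 246653156, but the median cell held 8878 and 10637 UMIs at Day 7 against 28420 and 27054 at Day 10, and cells under 3000 UMIs made up 30.6% and 23.2% against 4.03% and 4.51%. Barcodes that failed the mitochondrial limit numbered 472 and 758 at Day 7 against 2306 and 2521 at Day 10. Barcode sequences shared by the 2 replicates numbered 48 at Day 7 and 20 at Day 10. Prrx1, a homeobox gene of limb mesenchyme, was present in all 4 libraries at 225 and 216 CPM at Day 7 and 324 and 328 CPM at Day 10, while other limb patterning genes moved in both directions, as described further on. Genes that define other cell types were at or near 0 for red blood cells, whose 10 listed genes summed to 0.120 and 0.0949 UMIs per 1000000 (CPM) at Day 7 and 0.0711 and 0.0779 CPM at Day 10, and low for macrophages, whose 17 genes summed to 46.1 and 65.5 CPM against 219 and 262 CPM. In sums over a whole culture, fewer cells of a type and less RNA per cell cannot be told apart.

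Between Day 7 and Day 10 the cultures changed widely but mostly by small steps. Of 18988 genes tested by edgeR's quasi-likelihood test, 5220 (27.5%) were higher and 5141 (27.1%) lower at Day 10 at a Benjamini-Hochberg adjusted p under 0.05, with a median log2 fold change of -0.02 over all genes. Of these calls, 6376 were smaller than 1.5-fold. A change over 2-fold, a limit set after the data had been seen, was called for 694 genes (3.65%) higher and 1436 genes (7.56%) lower. The replicates of a time point were close, with a standard deviation of the log2 ratio of A to B of 0.105 at Day 7 and 0.152 at Day 10 over 7994 genes, against 0.434 for the log2 ratio of Day 10 to Day 7. Levels are given in CPM scaled by trimmed-mean (TMM) factors, changes as log2 fold changes of Day 10 over Day 7 with their standard errors (SE), and "higher", "lower", "rose" and "fell" mark genes that passed the test. In every gene named below as higher or lower, the 2 Day 10 libraries lay on the same side of the 2 Day 7 libraries. Lists of genes are described by how many members passed it, to be read against these shares of all genes. Some lists are also given with every cell thinned to 1000 UMIs. Those counts are to be read against that fit, which called 2563 of 13708 genes higher and 2296 lower. By more than 2-fold it called 407 higher and 474 lower. The plot of all tested genes labels examples of the groups described.

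**Figure D1:**
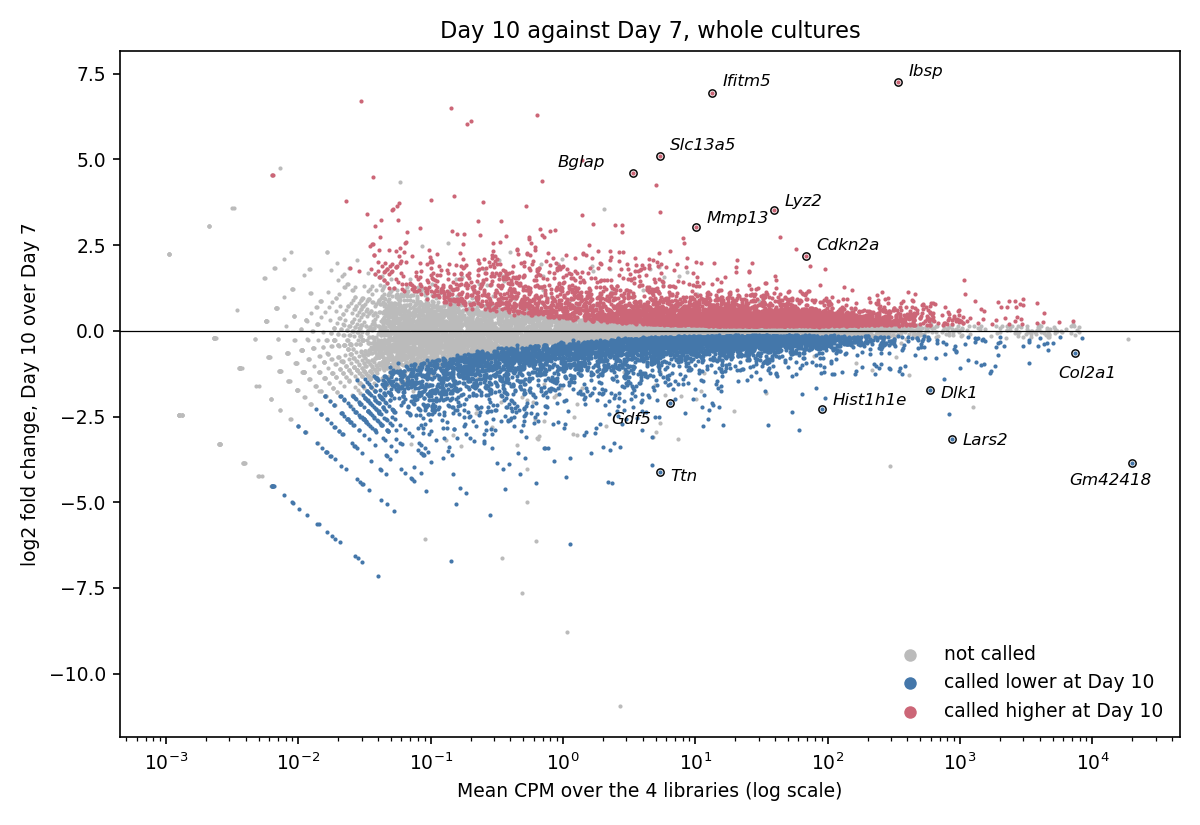
Log2 fold change of Day 10 over Day 7 against the mean level over the 4 libraries in CPM (log axis), each point a gene, coloured by its call. Ibsp (7.26) and Ifitm5 (6.95) are the labelled genes farthest up, and Ttn (-4.13) and Gm42418 (-3.84) the labelled genes farthest down, while most points lie within 1 log2 unit of 0.

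The cartilage programme receded. Of 8 regulators of cartilage, all transcription factors but the ubiquitin ligase gene Wwp2, 7 fell (against 27.1% of all genes) and none rose, and 5 fell by more than 2-fold (against 7.56% of all genes; 3 when thinned to 1000 UMIs per cell), with a median log2 fold change of -1.06. Sox9, the master factor of the chondrocyte, had 313 and 304 CPM at Day 7 and 199.9 and 190.01 CPM at Day 10. Both Day 10 libraries were lower than both Day 7 libraries (log2 fold change -0.66, SE 0.06, adjusted p = 1.2e-05). Its partner Sox5 had 81.4 and 81.8 CPM at Day 7 and 34.4 and 34.3 CPM at Day 10 (log2 fold change -1.25, SE 0.05, adjusted p = 8.1e-08), and Sox6, the other partner, had 66.4 and 68.9 CPM at Day 7 and 31.05 and 34.1 CPM at Day 10 (log2 fold change -1.05, SE 0.06, adjusted p = 4.9e-07). Wwp2, which Sox9 regulates and whose gene hosts a cartilage microRNA, had 334 and 341 CPM at Day 7 and 171 and 171 CPM at Day 10 (log2 fold change -0.98, SE 0.08, adjusted p = 3.6e-06). The member that did not pass was Trps1, at 129 and 135 CPM at Day 7 and 139.9 and 127 CPM at Day 10.

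Cartilage matrix genes fell almost as a body. Of 24 members 22 were lower, 7 by more than 2-fold, and 1 was higher, with a median log2 fold change of -0.74, and their summed level went from 27453 and 25970 CPM to 16429 and 16014 CPM. Col2a1, the main fibrillar collagen of cartilage (GRCm38 chr15:97975602-98004695, minus strand), had 9297 and 8642 CPM at Day 7 and 5883 and 5646 CPM at Day 10. Both Day 10 libraries lay well below both Day 7 libraries (log2 fold change -0.64, SE 0.08, adjusted p = 8.7e-05). Acan, which encodes the proteoglycan aggrecan, had 1109 and 1030.3 CPM at Day 7 and 771 and 704 CPM at Day 10 (log2 fold change -0.54, SE 0.13, adjusted p = 0.013). Acan did not pass without Day 10 replicate B (adjusted p = 0.074) or without Day 7 replicate A (adjusted p = 0.063). Col9a1, a collagen on the surface of type II fibrils, had 1523 and 1421 CPM at Day 7 and 832 and 791 CPM at Day 10 (log2 fold change -0.86, SE 0.07, adjusted p = 4.2e-06).

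Steeper falls were seen in smaller secreted proteins. Epyc, which encodes the leucine-rich proteoglycan epiphycan, had 152 and 149 CPM at Day 7 and 36.02 and 42.1 CPM at Day 10 (log2 fold change -1.95, SE 0.18, adjusted p = 0.0013). Cytl1, a cytokine-like product of chondrocytes, had 106 and 93.8 CPM at Day 7 and 25.9 and 29.2 CPM at Day 10 (log2 fold change -1.86, SE 0.07, adjusted p = 1.1e-07). Mia, a secreted protein long used as a chondrocyte marker, had 1074 and 1104 CPM at Day 7 and 392 and 427 CPM at Day 10 (log2 fold change -1.41, SE 0.07, adjusted p = 1.8e-07). Chad, chondroadherin, fell by 1.41 and Cnmd, the angiogenesis inhibitor chondromodulin, by 1.26 on the log2 scale. Comp was the exception. This cartilage oligomeric matrix protein, a thrombospondin also made by tendon and perichondrium, had 499 and 461 CPM at Day 7 and 859 and 786 CPM at Day 10 and rose (log2 fold change 0.78, SE 0.08, adjusted p = 2.5e-05). Matn2 passed in neither direction, at 9.796 and 12.05 CPM at Day 7 and 10.4 and 10.01 CPM at Day 10.

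The enzymes that build the sugar chains of proteoglycans did not move as a class: 12 of 48 genes of glycosaminoglycan synthesis and sulfation rose and 15 fell. Papss2, which makes the sulfate donor, had 133 and 119 CPM at Day 7 and 62.3 and 58.1 CPM at Day 10 (log2 fold change -1.06, SE 0.06, adjusted p = 8e-07). Csgalnact1, which starts chondroitin chains, had 78.2 and 72.8 CPM at Day 7 and 40.4 and 40.2 CPM at Day 10 (log2 fold change -0.91, SE 0.08, adjusted p = 1.2e-05). Xylt1, Chst11 and the sulfate transporter Slc26a2 fell by 0.79, 0.84 and 0.66 on the log2 scale. In contrast, Chst2, Chst12 and Chst14 rose, with log2 fold changes of 0.66, 0.57 and 0.48. Genes of the secretory pathway and collagen modification, a separate list, split evenly. Of 27 members 10 rose and 10 fell, with a median log2 fold change of -0.02. Plod2, a lysyl hydroxylase of collagen, had 306 and 286 CPM at Day 7 and 157 and 148 CPM at Day 10 (log2 fold change -0.95, SE 0.07, adjusted p = 2.6e-06), and Creb3l2, a factor that raises secretory capacity in chondrocytes, had 145 and 136 CPM at Day 7 and 91.5 and 87.7 CPM at Day 10 (log2 fold change -0.64, SE 0.06, adjusted p = 1e-05). Its relative Creb3l1, known from osteoblasts, went the other way, with 41.2 and 42.4 CPM at Day 7 and 90.8 and 83.96 CPM at Day 10 (log2 fold change 1.06, SE 0.06, adjusted p = 4.8e-07).

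Hypertrophy and bone genes rose over the same 3 days. Of 16 genes of chondrocyte hypertrophy 10 were higher (against 27.5% of all genes) and 2 lower, with a median log2 fold change of 0.31. Col10a1, which encodes the type X collagen that defines hypertrophic cartilage, had 32.7 and 29.3 CPM at Day 7 and 138 and 93.8 CPM at Day 10, with Day 10 replicate A above replicate B (log2 fold change 1.904, SE 0.23, adjusted p = 0.0047). Mmp13, a collagenase of terminal hypertrophic chondrocytes and osteoblasts, had 2.01 and 2.403 CPM at Day 7 and 17.6 and 18.6 CPM at Day 10, the largest rise of the hypertrophy list (log2 fold change 3.03, SE 0.09, adjusted p = 2.1e-08). Panx3, a pannexin channel of prehypertrophic cells, had 51.2 and 45.1 CPM at Day 7 and 91.2 and 91.9 CPM at Day 10 (log2 fold change 0.93, SE 0.10, adjusted p = 0.00034). Runx2, which acts in both hypertrophy and bone, had 48.2 and 46.6 CPM at Day 7 and 59.8 and 63.7 CPM at Day 10, a small change (log2 fold change 0.38, SE 0.06, adjusted p = 0.0003) that did not pass when thinned to 1000 UMIs per cell, and its relative Runx3 had 10.98 and 11.1 CPM at Day 7 and 15.98 and 18.1 CPM at Day 10 (log2 fold change 0.63, SE 0.07, adjusted p = 5.3e-05). The 2 lower members were forkhead factors of hypertrophy, Foxa3 at 14.8 and 14.7 CPM at Day 7 and 6.58 and 6.75 CPM at Day 10 (log2 fold change -1.14, SE 0.06, adjusted p = 3.2e-07) and Foxa2 at 1.96 and 1.78 CPM at Day 7 and 1.25 and 1.07 CPM at Day 10 (log2 fold change -0.69, SE 0.14, adjusted p = 0.0021). Vegfa, the angiogenic factor of the hypertrophic zone, had 56.98 and 59.1 CPM at Day 7 and 52.7 and 55.4 CPM at Day 10 and did not pass the test (adjusted p = 0.11). With every cell thinned to 1000 UMIs, 6 of the 16 chondrocyte hypertrophy genes rose and 3 fell, with a median of 0.097. Over all 13708 genes of that fit 2563 rose and 2296 fell.

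The signalling loop that paces hypertrophy in the growth plate changed in several members. Indian hedgehog (Ihh), secreted by prehypertrophic chondrocytes, had 16.2 and 17.1 CPM at Day 7 and 28.3 and 29.1 CPM at Day 10 (log2 fold change 0.79, SE 0.07, adjusted p = 6.7e-06). Pth1r, the receptor on which parathyroid hormone-related protein acts, had 95.8 and 90.5 CPM at Day 7 and 203 and 219 CPM at Day 10 (log2 fold change 1.18, SE 0.06, adjusted p = 2.5e-07). The ligand itself, Pthlh, which holds chondrocytes back from hypertrophy, had 1.88 and 2.67 CPM at Day 7 and 1.02 and 0.948 CPM at Day 10 (log2 fold change -1.21, SE 0.16, adjusted p = 0.00072). Over the 14 genes of the hedgehog and PTHrP loop 3 rose and 6 fell. Ptch1, receptor and direct target of hedgehog signalling, rose (log2 fold change 0.39, SE 0.10, adjusted p = 0.016). Ptch1 did not pass without Day 7 replicate A (adjusted p = 0.065) or without Day 7 replicate B (adjusted p = 0.068). In the same loop the co-receptor Cdon (log2 fold change -1.02, SE 0.08, adjusted p = 4.4e-06), the transducers Gli2 and Smo and the binding protein Hhip fell, the last 3 by 0.78, 0.31 and 0.49 on the log2 scale.

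Bone genes included the largest rises among genes that reached 10 CPM. Of 26 osteoblast and bone matrix genes 22 were higher and none lower, 12 of them by more than 2-fold (against 3.65% of all genes), with a median log2 fold change of 0.95, and the summed level went from 8224 and 7969 CPM to 15690 and 15472 CPM. Ibsp, bone sialoprotein, a phosphoprotein that nucleates hydroxyapatite (GRCm38 chr5:104299171-104311469, plus strand), had 3.4995 and 5.26 CPM at Day 7 and 541 and 799 CPM at Day 10. Both Day 10 libraries stood far above both Day 7 libraries (log2 fold change 7.26, SE 0.46, adjusted p = 0.0013), and the ratio of the means was 153. Ifitm5, a membrane protein of mineralizing osteoblasts, had 0.189 and 0.242 CPM at Day 7 and 21.1 and 32.2 CPM at Day 10 (log2 fold change 6.95, SE 0.38, adjusted p = 0.00044). Bglap, osteocalcin, had 0.309 and 0.221 CPM at Day 7 and 6.34 and 6.53 CPM at Day 10, so it was barely detected at Day 7 and low at Day 10 (log2 fold change 4.59, SE 0.16, adjusted p = 2.9e-08). Its neighbouring near-copies Bglap2 and Bglap3 share sequence with it, so the split of reads among them is uncertain.

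Regulators and enzymes of bone rose too. Sp7, osterix, the factor that commits cells to the osteoblast, had 5.73 and 5.57 CPM at Day 7 and 21.2 and 23.02 CPM at Day 10 (log2 fold change 1.97, SE 0.07, adjusted p = 2.9e-08). Alpl, tissue-nonspecific alkaline phosphatase, which frees phosphate for mineral, had 19.4 and 17.6 CPM at Day 7 and 89.8 and 103 CPM at Day 10 (log2 fold change 2.38, SE 0.12, adjusted p = 1e-05). Smpd3, a sphingomyelinase needed for mineralization, had 43.8 and 40.9998 CPM at Day 7 and 133 and 162 CPM at Day 10 (log2 fold change 1.7999, SE 0.11, adjusted p = 3e-05). Spp1, osteopontin, had 561 and 577 CPM at Day 7 and 1532 and 1629.5 CPM at Day 10 (log2 fold change 1.48, SE 0.15, adjusted p = 0.0003), and macrophages make it too. The collagens of bone and fibrous tissue, Col1a1 (1916 and 1805 CPM at Day 7 and 3581 and 3171 CPM at Day 10) and Col1a2 (2111 and 2012 CPM at Day 7 and 4042 and 3768 CPM at Day 10), rose by 0.86 and 0.92 on the log2 scale, and Col1a1 did not pass when thinned to 1000 UMIs per cell (adjusted p = 0.19). Outside the list, the citrate transporter Slc13a5, which loads bone mineral with citrate, had 0.319 and 0.295 CPM at Day 7 and 9.22 and 11.7 CPM at Day 10 (log2 fold change 5.09, SE 0.17, adjusted p = 1.6e-07), and Sgms2, a sphingomyelin synthase, had 12.1 and 10.6 CPM at Day 7 and 73.1 and 77.5 CPM at Day 10 (log2 fold change 2.73, SE 0.08, adjusted p = 2.9e-08). With every cell thinned to 1000 UMIs, 23 of the bone genes were testable and 14 of them rose, none fell.

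Of 17 genes of phosphate handling and mineralization 11 rose and 3 fell, and they included both promoters and inhibitors of mineral. Mgp, matrix Gla protein, an inhibitor, had 1572 and 1583 CPM at Day 7 and 2591 and 2469.8 CPM at Day 10 (log2 fold change 0.68, SE 0.07, adjusted p = 1.3e-05). Ank, a transporter that exports pyrophosphate, had 15.9 and 16.2 CPM at Day 7 and 25.01 and 24.5 CPM at Day 10 (log2 fold change 0.63, SE 0.06, adjusted p = 1.2e-05). Enpp1, which makes pyrophosphate from nucleotides, fell (log2 fold change -0.43, SE 0.06, adjusted p = 0.00017). Phospho1, a phosphatase of matrix vesicles, stayed under 1 CPM in all 4 libraries and did not pass (adjusted p = 0.46). Thinned to 1000 UMIs per cell, 5 of the 15 genes still testable rose and 1 fell.

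**Figure D2:**
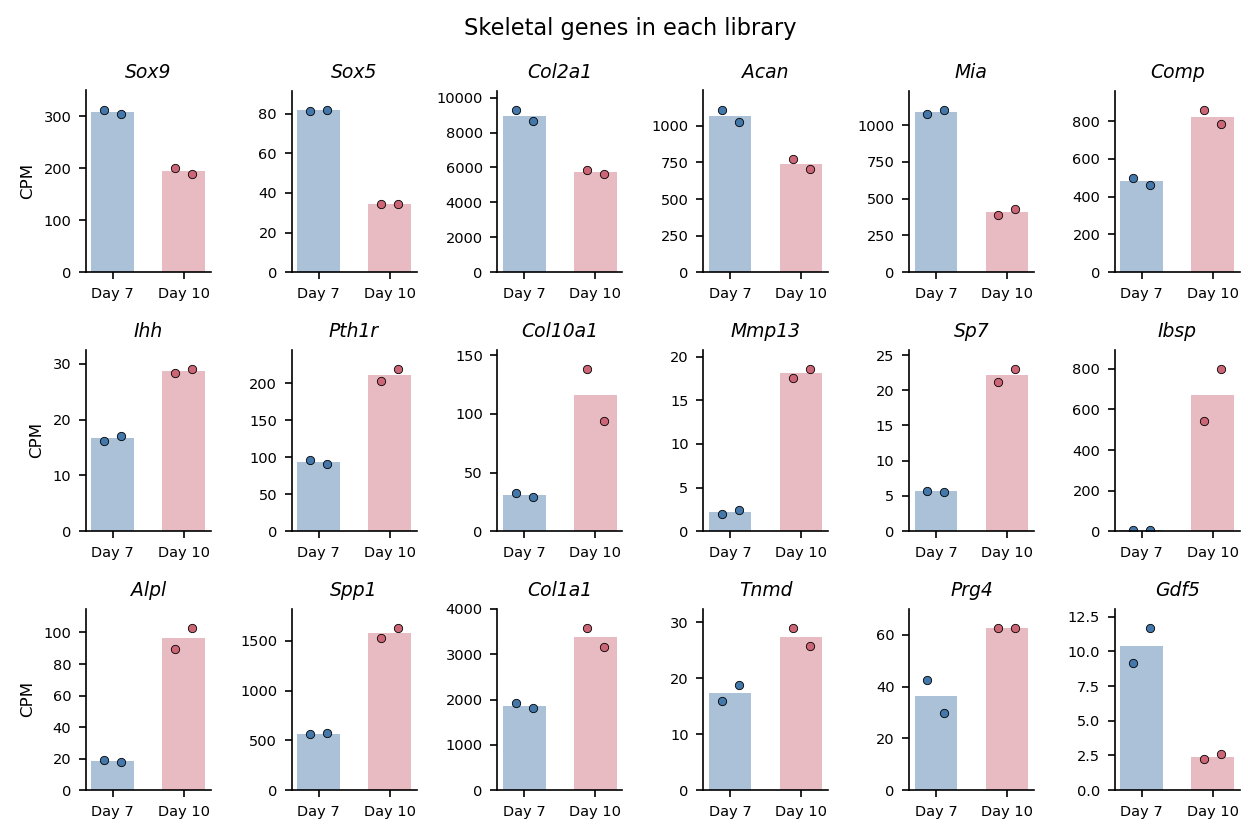
Level in CPM of 18 skeletal genes in each library, with bars for the mean of a time point and points for replicates A and B, on a linear axis from 0 for each gene. Sox9, Sox5, Col2a1, Acan, Mia and Gdf5 are lower in both Day 10 libraries than in both Day 7 libraries, and the other genes are higher in both, Ibsp by far the most.

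Promoters of the genes that moved in opposite directions were read from the RefSeq promoter table (GRCm38.p6), which holds 300 bases around each start and matched 13594 of the genes tested. Core-binding sites of RUNX factors read TGTGGT, or ACCACA on the other strand. These letters stood in 15.3% of tested genes with a promoter in the table, in 5 of the 14 bone genes that rose and had a promoter there (35.7%) and in 4 of the 17 such cartilage matrix genes that fell (23.5%). The 160 bases before the start are shown for 4 hypertrophy and bone genes, 3 with the motif and 1 without, with the motif in capitals.

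Bglap, chr3:88384467-88384626, minus strand: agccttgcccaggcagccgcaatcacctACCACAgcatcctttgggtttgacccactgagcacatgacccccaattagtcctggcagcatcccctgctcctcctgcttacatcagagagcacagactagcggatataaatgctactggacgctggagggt
Mmp13, chr9:7272354-7272513, plus strand: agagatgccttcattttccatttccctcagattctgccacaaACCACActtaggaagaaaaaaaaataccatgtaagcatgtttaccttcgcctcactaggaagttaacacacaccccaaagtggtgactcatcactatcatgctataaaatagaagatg
Spp1, chr5:104434951-104435110, plus strand: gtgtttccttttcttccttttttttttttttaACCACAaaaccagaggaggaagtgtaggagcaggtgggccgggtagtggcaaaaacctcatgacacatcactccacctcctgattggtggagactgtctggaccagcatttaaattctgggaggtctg
Col10a1, chr10:34389821-34389980, plus strand: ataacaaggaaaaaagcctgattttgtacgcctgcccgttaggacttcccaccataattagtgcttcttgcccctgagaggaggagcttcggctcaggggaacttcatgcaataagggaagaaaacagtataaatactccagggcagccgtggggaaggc

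The match begins at -132 of the start in Bglap, at -118 in Mmp13 and at -128 in Spp1, for which the table holds 2 starts. For Col10a1 these letters are not in the stretch shown. Over all 18 bone genes with a promoter in the table, whether they moved or not, 6 (33.3%) held the motif. A match is a description of the letters and not a site in use.

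Of 28 fibrous and minor collagens 16 rose and 4 fell, with a median log2 fold change of 0.28, and of 24 microfibril and elastic fibre genes 16 rose and 2 fell. With every cell thinned to 1000 UMIs, 7 of 27 fibrous and minor collagens rose and 3 fell, with a median of 0.098, and 12 of the 24 microfibril and elastic fibre genes rose and 2 fell. Col3a1, the collagen of loose connective tissue, had 463 and 438 CPM at Day 7 and 793 and 689 CPM at Day 10 (log2 fold change 0.72, SE 0.08, adjusted p = 5.3e-05). Col5a2, which sets the width of type I fibrils, had 427 and 396 CPM at Day 7 and 664 and 606 CPM at Day 10 (log2 fold change 0.63, SE 0.07, adjusted p = 2.9e-05). Postn, periostin of the periosteum, had 155 and 166 CPM at Day 7 and 375 and 331 CPM at Day 10 (log2 fold change 1.14, SE 0.10, adjusted p = 4.4e-05). Fbln5, an organiser of elastic fibres, had 172 and 161 CPM at Day 7 and 323 and 303 CPM at Day 10 (log2 fold change 0.91, SE 0.06, adjusted p = 1.4e-06), and Lox, which crosslinks collagen and elastin, had 193 and 182 CPM at Day 7 and 332 and 285 CPM at Day 10 (log2 fold change 0.72, SE 0.07, adjusted p = 1.8e-05). Fbn2, the fibrillin of embryonic tissue, fell (log2 fold change -0.42, SE 0.08, adjusted p = 0.00084). Of the lower collagens, Col26a1 had 20.8 and 26.2 CPM at Day 7 and 7.92 and 7.42 CPM at Day 10 (log2 fold change -1.62, SE 0.11, adjusted p = 2.4e-05) and the basement membrane collagen Col15a1 had 16.7 and 17.03 CPM at Day 7 and 5.73 and 6.3997 CPM at Day 10 (log2 fold change -1.47, SE 0.07, adjusted p = 1.4e-07).

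Among 15 small leucine-rich proteoglycans 7 rose and 5 fell. Bgn, biglycan, had 708 and 694 CPM at Day 7 and 1546 and 1397 CPM at Day 10 (log2 fold change 1.07, SE 0.08, adjusted p = 1.9e-06), and Aspn, asporin, had 177 and 173 CPM at Day 7 and 317 and 292 CPM at Day 10 (log2 fold change 0.799, SE 0.08, adjusted p = 2e-05). Fmod, fibromodulin of tendon, rose (log2 fold change 0.63, SE 0.06, adjusted p = 1.3e-05). Dcn, decorin, the close relative of biglycan, went the other way, with 133 and 142 CPM at Day 7 and 72.6 and 76.9 CPM at Day 10 (log2 fold change -0.88, SE 0.06, adjusted p = 1.1e-06).

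Tendon genes rose for 7 of 14 and fell for 3. Scx, the transcription factor of tendon progenitors, had 40.2 and 38.8 CPM at Day 7 and 67.99 and 63.9 CPM at Day 10 (log2 fold change 0.74, SE 0.06, adjusted p = 5.9e-06). Tnmd, tenomodulin, had 15.9 and 18.7 CPM at Day 7 and 28.97 and 25.7 CPM at Day 10 (log2 fold change 0.66, SE 0.19, adjusted p = 0.045), and Thbs4, a thrombospondin of mature tendon, had 11.2 and 8.702 CPM at Day 7 and 21.8 and 16.8 CPM at Day 10 (log2 fold change 0.96, SE 0.18, adjusted p = 0.0098). Tnmd did not pass with any 1 of the 4 libraries left out (adjusted p = 0.081 to 0.17). Genes of joint and articular surface moved both ways, 7 of 22 up and 9 down. Without Day 10 replicate A, 4 of the 22 rose. Gdf5, the growth factor of the joint interzone, had 9.16 and 11.7 CPM at Day 7 and 2.25 and 2.58 CPM at Day 10, and both Day 10 libraries lay far below both Day 7 libraries (log2 fold change -2.11, SE 0.15, adjusted p = 6.7e-05). Prg4, lubricin of the articular surface, had 42.7 and 29.9 CPM at Day 7 and 62.7 and 62.5 CPM at Day 10 and rose (log2 fold change 0.79, SE 0.18, adjusted p = 0.021), as did Vcam1 (log2 fold change 0.96, SE 0.07, adjusted p = 2.7e-06). Prg4 did not pass without Day 10 replicate A (adjusted p = 0.1) or without Day 10 replicate B (adjusted p = 0.11). Osr1, a factor of joint and loose connective tissue, had 25.02 and 31.4 CPM at Day 7 and 11.7 and 13.8 CPM at Day 10 (log2 fold change -1.14, SE 0.13, adjusted p = 0.00068), and Creb5, which raises Prg4 in articular cells, had 20.4 and 23.9 CPM at Day 7 and 9.84 and 9.44 CPM at Day 10 (log2 fold change -1.201, SE 0.07, adjusted p = 8.4e-07).

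Genes of fibroblasts around vessels and in the outer wall of tissues (adventitial type) also split, 8 of 16 higher and 5 lower. Thy1 had 18.5 and 18.9 CPM at Day 7 and 51.6 and 47.8 CPM at Day 10 (log2 fold change 1.41, SE 0.06, adjusted p = 7.9e-08), Cd34 had 1.75 and 1.94 CPM at Day 7 and 4.899 and 6.27 CPM at Day 10 (log2 fold change 1.596, SE 0.12, adjusted p = 3.5e-06) and Gsn, gelsolin, had 75.4 and 80.2 CPM at Day 7 and 192 and 183 CPM at Day 10 (log2 fold change 1.27, SE 0.15, adjusted p = 0.0018). Pdgfra, the receptor of mesenchymal progenitors, had 60.8 and 62.95 CPM at Day 7 and 33.3 and 32.2 CPM at Day 10 and fell (log2 fold change -0.92, SE 0.06, adjusted p = 1.6e-06). Proteases of the matrix and their inhibitors rose for 19 of 41 members and fell for 13 (13 and 7 of 36 when thinned to 1000 UMIs per cell). Timp1, the tissue inhibitor of metalloproteinases, had 314 and 317 CPM at Day 7 and 562 and 583 CPM at Day 10 (log2 fold change 0.86, SE 0.08, adjusted p = 1.5e-05), and Mmp23 had 44.995 and 43.4 CPM at Day 7 and 98.01 and 99.2 CPM at Day 10 (log2 fold change 1.16, SE 0.12, adjusted p = 0.0005). Mmp16, a membrane-bound metalloproteinase, fell (log2 fold change -0.97, SE 0.06, adjusted p = 6.8e-07).

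Signalling pathways held members called in both directions. In the plot of gene lists, the cartilage matrix and imprinted lists lie far to the left and the osteoblast and bone matrix list far to the right, whereas the BMP, TGF-beta, FGF, WNT and Notch lists extend to both sides. Of 28 BMP ligands, receptors and targets 7 rose and 11 fell. Bmp2 had 11.7 and 10.6 CPM at Day 7 and 8.36 and 8.98 CPM at Day 10 (log2 fold change -0.36, SE 0.07, adjusted p = 0.0013) and Bmp7 had 7.48 and 7.25 CPM at Day 7 and 3.24 and 4.12 CPM at Day 10 (log2 fold change -1.002, SE 0.10, adjusted p = 6.5e-05). Of the targets, Id3 had 478 and 481 CPM at Day 7 and 709 and 689 CPM at Day 10 (log2 fold change 0.54, SE 0.08, adjusted p = 0.00017) whereas Id4 had 33.4 and 31.8 CPM at Day 7 and 17.2 and 18.8 CPM at Day 10 (log2 fold change -0.85, SE 0.06, adjusted p = 1.7e-06). Antagonists of BMP rose for 9 of 15 and fell for 4. Grem1 (log2 fold change 0.62, SE 0.05, adjusted p = 5.5e-06), Fst (log2 fold change 0.499, SE 0.07, adjusted p = 0.00012) and the decoy receptor Bambi (log2 fold change 0.59, SE 0.06, adjusted p = 1.3e-05) rose, while Sostdc1 had 9.796 and 10.8 CPM at Day 7 and 3.11 and 4.35 CPM at Day 10 and fell (log2 fold change -1.47, SE 0.16, adjusted p = 0.00088).

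**Figure D3:**
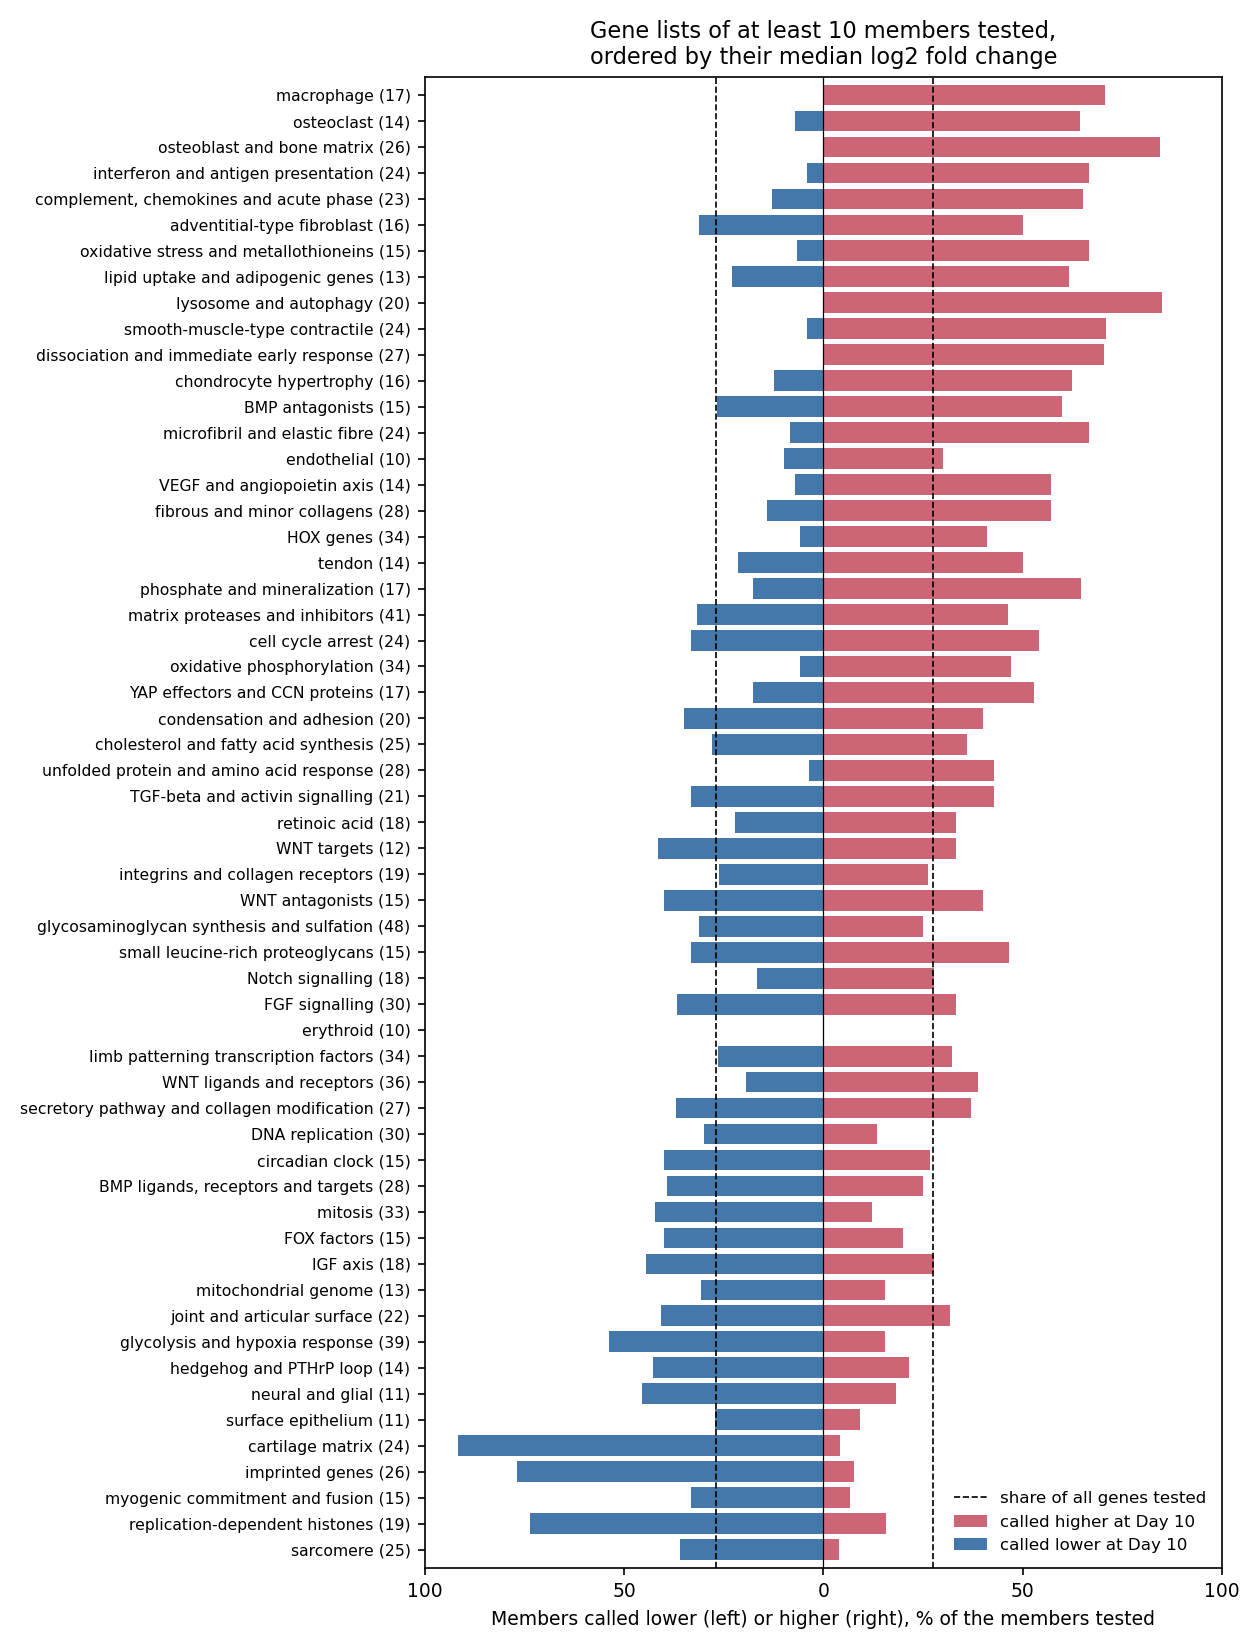
Share of the members tested of each gene list with at least 10 members tested that were called higher (right) or lower (left) at Day 10, in percent, ordered by the median log2 fold change of the list. Dashed lines mark the shares of all genes tested (27.5% and 27.1%), and cartilage matrix and imprinted genes extend farthest left while osteoblast and bone matrix and lysosome genes extend farthest right.

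WNT ligands and receptors rose for 14 of 36 and fell for 7. Without Day 7 replicate A 9 rose, and without Day 10 replicate B 4 fell. Rspo2, an R-spondin that amplifies WNT signalling, had 4.45 and 4.42 CPM at Day 7 and 20.3 and 14.8 CPM at Day 10 (log2 fold change 1.98, SE 0.15, adjusted p = 0.00011), and Rspo3 had 163 and 154 CPM at Day 7 and 233 and 236 CPM at Day 10 (log2 fold change 0.56, SE 0.06, adjusted p = 3.3e-05). Wnt10a had 2.28 and 2.22 CPM at Day 7 and 6.74 and 10.8 CPM at Day 10 (log2 fold change 1.96, SE 0.26, adjusted p = 0.0027), and Wnt5a, the ligand of distal limb outgrowth, rose slightly (log2 fold change 0.28, SE 0.06, adjusted p = 0.0035). The antagonist Sfrp1 had 19.2 and 21.7 CPM at Day 7 and 9.93 and 9.46 CPM at Day 10 and fell (log2 fold change -1.07, SE 0.08, adjusted p = 3e-06), and Dkk3 rose (log2 fold change 0.43, SE 0.06, adjusted p = 0.00013). Targets of the canonical pathway did not move together. Axin2, its feedback inhibitor, had 4.07 and 4.23 CPM at Day 7 and 1.88 and 2.104 CPM at Day 10 (log2 fold change -1.06, SE 0.11, adjusted p = 2.6e-05) and Lef1 had 6.96 and 6.86 CPM at Day 7 and 3.65 and 4.59 CPM at Day 10 (log2 fold change -0.75, SE 0.10, adjusted p = 0.00016), both lower, whereas Tcf7 had 0.698 and 0.643 CPM at Day 7 and 4.16 and 5.703 CPM at Day 10 (log2 fold change 2.88, SE 0.17, adjusted p = 1.9e-06) and Ccnd1, cyclin D1, had 151 and 142 CPM at Day 7 and 199 and 235 CPM at Day 10 (log2 fold change 0.57, SE 0.08, adjusted p = 0.00016), both higher.

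FGF signalling was split, with 10 of 30 members higher and 11 lower, and 6 lower without Day 10 replicate B or without Day 7 replicate A. The receptor of chondrocytes, Fgfr3, had 121 and 109 CPM at Day 7 and 88.7 and 83.6 CPM at Day 10 (log2 fold change -0.41, SE 0.10, adjusted p = 0.0098). Fgfr3 did not pass without Day 10 replicate B (adjusted p = 0.063) or without Day 7 replicate A (adjusted p = 0.053). Fgf7, a ligand made by mesenchyme, had 17.3 and 17.2 CPM at Day 7 and 34.2 and 37.8 CPM at Day 10 (log2 fold change 1.06, SE 0.06, adjusted p = 4.8e-07). Of the feedback inhibitors that the pathway induces, Spry1 had 7.203 and 7.66 CPM at Day 7 and 18.5 and 19.996 CPM at Day 10 (log2 fold change 1.37, SE 0.08, adjusted p = 1.3e-06) and Dusp6 had 14.2 and 13.5 CPM at Day 7 and 25.8 and 24.3 CPM at Day 10 (log2 fold change 0.85, SE 0.06, adjusted p = 1.3e-06). In the TGF-beta and activin list 9 of 21 rose and 7 fell, and 4 fell without Day 10 replicate B or without Day 7 replicate A. Tgfb1 had 29.1 and 27.2 CPM at Day 7 and 43.3 and 45.2 CPM at Day 10 (log2 fold change 0.65, SE 0.08, adjusted p = 0.00012) while Tgfb2 and the receptor Tgfbr1 fell by 0.29 and 0.47 on the log2 scale, and the induced gene Pmepa1 had 331 and 324 CPM at Day 7 and 526 and 537 CPM at Day 10 (log2 fold change 0.698, SE 0.07, adjusted p = 2.3e-05). Notch genes were mostly uncalled, with 5 of 18 higher and 3 lower, and 3 higher without Day 7 replicate A. Hes1 rose (log2 fold change 0.36, SE 0.10, adjusted p = 0.02) and Rbpj, the pathway's DNA-binding partner, fell (log2 fold change -0.36, SE 0.08, adjusted p = 0.0029). Hes1 did not pass without Day 10 replicate B (adjusted p = 0.093) or without Day 7 replicate A (adjusted p = 0.11).

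HOX genes, which give cells their position along the limb, changed little. Of 34 HOX genes tested 14 rose and 2 fell, and none passed 2-fold. The genes of the digit field were among those that did not pass: Hoxa13 had 10.99 and 9.95 CPM at Day 7 and 12.2 and 11.4 CPM at Day 10 (adjusted p = 0.055), Hoxd13 had 18.2 and 15.6 CPM at Day 7 and 19.4 and 15.4 CPM at Day 10 with overlapping groups (adjusted p = 0.82), and Hoxd12 had 3.64 and 3.72 CPM at Day 7 and 4.53 and 4.02 CPM at Day 10 (adjusted p = 0.05). Both Hoxa13 and Hoxd12 lay close to the threshold and passed under 8 of the 19 alternatives each, Hoxa13 without Day 7 replicate A (adjusted p = 0.041) and Hoxd12 without Day 10 replicate B (adjusted p = 0.024) among them. The rise of the others was small, as in Hoxa7 (log2 fold change 0.35, SE 0.07, adjusted p = 0.0011) and Hoxd10 (log2 fold change 0.304, SE 0.05, adjusted p = 0.00075). With every cell thinned to 1000 UMIs, 25 HOX genes were testable, of which 3 rose and none fell. Of 34 limb patterning factors 11 rose and 9 fell, 4 of the falls past 2-fold (2 without Day 10 replicate B or without Day 7 replicate B). Irx3 had 19.6 and 17.9 CPM at Day 7 and 45.99 and 51.7 CPM at Day 10 (log2 fold change 1.38, SE 0.07, adjusted p = 2e-07) and its neighbour Irx5 had 7.36 and 7.78 CPM at Day 7 and 20.8 and 22.2 CPM at Day 10 (log2 fold change 1.504, SE 0.06, adjusted p = 8.3e-08). Prrx1 and Prrx2 rose by 0.56 and 0.83 on the log2 scale, while Tbx5, the forelimb factor, had 36.6 and 37.6 CPM at Day 7 and 24.5 and 22.95 CPM at Day 10 (log2 fold change -0.64, SE 0.05, adjusted p = 5.2e-06) and Msx1, a gene of undifferentiated distal mesenchyme, had 9.995 and 9.57 CPM at Day 7 and 5.45 and 5.95 CPM at Day 10 (log2 fold change -0.78, SE 0.06, adjusted p = 4.3e-06). In the retinoic acid list 6 of 18 rose and 4 fell. Crabp2, a carrier of retinoic acid, had 24.3 and 23.97 CPM at Day 7 and 58.6 and 56.1 CPM at Day 10 (log2 fold change 1.25, SE 0.06, adjusted p = 1.6e-07), and Cyp26b1, which degrades it, had 17.5 and 16.1 CPM at Day 7 and 12.4 and 11.7 CPM at Day 10 (log2 fold change -0.48, SE 0.06, adjusted p = 0.0001).

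The imprinted genes, most of them known as regulators of embryonic growth, fell: 20 of 26 were lower and 2 higher, 15 fell by more than 2-fold, and the median log2 fold change was -1.08. Igf2, the fetal growth factor, had 2050.1 and 1967 CPM at Day 7 and 1033 and 1026 CPM at Day 10 (log2 fold change -0.96, SE 0.07, adjusted p = 1.8e-06). H19, the noncoding RNA next to it, had 2500.2 and 2326 CPM at Day 7 and 1512 and 1454 CPM at Day 10 (log2 fold change -0.703, SE 0.07, adjusted p = 2.4e-05). Cdkn1c, a cell cycle inhibitor and growth restrictor, had 2335 and 2387 CPM at Day 7 and 973 and 1036 CPM at Day 10 (log2 fold change -1.23, SE 0.08, adjusted p = 1e-06). Dlk1, a Notch-like transmembrane protein of progenitors, had 893 and 934 CPM at Day 7 and 223 and 332 CPM at Day 10, with the 2 Day 10 libraries farther apart than the 2 Day 7 libraries (log2 fold change -1.72, SE 0.20, adjusted p = 0.0021). From the same locus the noncoding RNAs Meg3 (log2 fold change -1.01, SE 0.08, adjusted p = 4.2e-06), Rian (log2 fold change -1.09, SE 0.08, adjusted p = 2.4e-06) and Mirg (log2 fold change -1.32, SE 0.08, adjusted p = 2.4e-06) fell as well. Usp29 (log2 fold change -1.77, SE 0.11, adjusted p = 1.5e-05), Peg10 (log2 fold change -1.32, SE 0.09, adjusted p = 1.2e-05) and Magel2 (log2 fold change -1.68, SE 0.08, adjusted p = 1.3e-07) lie at other imprinted loci. Sgce, next to Peg10, was one of the 2 higher members (log2 fold change 0.32, SE 0.05, adjusted p = 0.00034), the other being Nap1l5 (log2 fold change 0.63, SE 0.14, adjusted p = 0.0027). With the cells limited to those of at least 3000 UMIs, the counts of the list were the same.

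Members of the IGF axis moved in both directions. Of 18 genes 5 rose and 8 fell, with a median log2 fold change of -0.18. The receptors Igf2r, which clears Igf2, and Insr fell by 0.63 and 0.45 on the log2 scale. Several binding proteins rose. Igfbp4 had 449.9 and 457 CPM at Day 7 and 803 and 791 CPM at Day 10 (log2 fold change 0.81, SE 0.06, adjusted p = 3.7e-06), Igfbp3 had 83.1 and 84.02 CPM at Day 7 and 144 and 118 CPM at Day 10 (log2 fold change 0.65, SE 0.08, adjusted p = 0.00022) and Igfbp6 had 7.87 and 7.98 CPM at Day 7 and 31.9 and 34.6 CPM at Day 10 (log2 fold change 2.07, SE 0.16, adjusted p = 0.00035).

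Cell cycle genes moved by small amounts and in both directions. Of 33 mitosis genes 4 rose and 14 fell, of 30 DNA replication genes 4 rose and 9 fell, and none of either list passed 2-fold. In the mitosis list 1 gene rose without Day 7 replicate A, and in the DNA replication list 2 rose without Day 10 replicate B, without Day 7 replicate A or without Day 7 replicate B. Thinned to 1000 UMIs per cell, 9 mitosis genes fell and 5 rose. Mki67, the proliferation antigen, had 84.2 and 77.8 CPM at Day 7 and 48.5 and 54.2 CPM at Day 10 (log2 fold change -0.66, SE 0.06, adjusted p = 1.6e-05). Top2a, the topoisomerase that untangles chromosomes, had 145 and 141 CPM at Day 7 and 87.6 and 102 CPM at Day 10 (log2 fold change -0.59, SE 0.08, adjusted p = 0.00028). The kinetochore scaffold Knl1 fell too (log2 fold change -0.63, SE 0.07, adjusted p = 2.6e-05). Ccnb1, a cyclin that starts mitosis, went the other way, with 23.2 and 25.1 CPM at Day 7 and 28.99 and 32.04 CPM at Day 10 (log2 fold change 0.34, SE 0.07, adjusted p = 0.0023). Pcna, the clamp of the replication fork, had 63.8 and 62.2 CPM at Day 7 and 67.4 and 65.3 CPM at Day 10 and did not pass (adjusted p = 0.23). Ccne2, a cyclin of S phase entry, fell (log2 fold change -0.75, SE 0.13, adjusted p = 0.0035).

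Promoters of mitosis genes carry the CHR element, TTTGAA, or TTCAAA on the other strand. They also carry CCAAT boxes, or ATTGG on the other strand. TTTGAA stood in 15.2% of tested genes with a promoter in the table but in 21 of 28 mitosis genes (75%), and CCAAT in 42.1% against 22 of 28. Among the 14 mitosis genes that fell and had a promoter in the table, 11 held TTTGAA and 11 held CCAAT. The promoters of Mki67 and Kif11 are shown, a gene that fell and the motor that drives the spindle apart, with both motifs in capitals.

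Mki67, chr7:135716380-135716539, minus strand: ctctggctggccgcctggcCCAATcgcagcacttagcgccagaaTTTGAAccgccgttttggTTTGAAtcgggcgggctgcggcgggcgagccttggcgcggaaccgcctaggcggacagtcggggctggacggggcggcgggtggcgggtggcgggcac
Kif11, chr19:37376222-37376381, plus strand: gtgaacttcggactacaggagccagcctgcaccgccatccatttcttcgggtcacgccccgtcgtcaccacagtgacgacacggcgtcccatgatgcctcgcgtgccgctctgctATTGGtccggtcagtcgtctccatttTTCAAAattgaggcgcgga

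The inhibitors of the cycle separated into groups. Cdkn2a, whose products p16 and p19Arf mark senescent and long-cultured cells, had 24.1 and 25.05 CPM at Day 7 and 109 and 115 CPM at Day 10 (log2 fold change 2.19, SE 0.24, adjusted p = 0.004). Its neighbour Cdkn2b, p15, had 21.4 and 21.6 CPM at Day 7 and 61.3 and 59.1 CPM at Day 10 (log2 fold change 1.49, SE 0.19, adjusted p = 0.004), and Cdkn1a, p21, had 264 and 262 CPM at Day 7 and 454 and 502 CPM at Day 10 (log2 fold change 0.86, SE 0.23, adjusted p = 0.041). Cdkn1a did not pass with any 1 of the 4 libraries left out (adjusted p = 0.12 to 0.17). In contrast Cdkn1c fell, as described. Over the 24 genes of cell cycle arrest 13 rose and 8 fell. Gadd45a and Gadd45g, stress-induced growth arrest genes, rose by 0.94 and 0.89 on the log2 scale.

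Most histone genes fell. Of 19 replication-dependent histone genes 14 fell, all of them by more than 2-fold, and 3 rose, with a median log2 fold change of -2.18. Hist1h1e, a linker histone, had 156 and 145 CPM at Day 7 and 28.1 and 33.4 CPM at Day 10 (log2 fold change -2.29, SE 0.09, adjusted p = 1.6e-07). Hist1h4d had 103 and 109 CPM at Day 7 and 12.98 and 15.8 CPM at Day 10 (log2 fold change -2.88, SE 0.30, adjusted p = 0.004) and Hist1h1b had 188 and 171 CPM at Day 7 and 71.5 and 83.3 CPM at Day 10 (log2 fold change -1.22, SE 0.08, adjusted p = 1.8e-06). Hist1h2ap, the highest of the list at Day 7, had 578 and 529 CPM at Day 7 and 62.4 and 9.496 CPM at Day 10, with Day 10 libraries far apart, and did not pass (log2 fold change -3.94, SE 1.13, adjusted p = 0.063). Hist1h2ap passed by DESeq2 and without either Day 10 library. The 3 higher members, Hist1h1c (log2 fold change 0.52, SE 0.06, adjusted p = 6.6e-05), Hist1h2bc (log2 fold change 0.65, SE 0.05, adjusted p = 4.7e-06) and Hist1h4i (log2 fold change 0.53, SE 0.06, adjusted p = 5.8e-05), were all under 2-fold. Transcripts of these genes made in S phase end without a poly(A) tail, which the libraries were primed from, and near-identical copies share reads, so single histone values are uncertain.

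An annotated gene that overlaps ribosomal RNA, which also has no poly(A) tail, moved with them. This gene, Gm42418 (GRCm38 chr17:39846958-39848788), had 36058 and 37864 CPM at Day 7 and 2595 and 2557 CPM at Day 10 (log2 fold change -3.84, SE 0.56, adjusted p = 0.011). Reads counted for Lars2, annotated as a mitochondrial tRNA synthetase gene, gave 1482 and 1635 CPM at Day 7 and 155 and 197 CPM at Day 10 (log2 fold change -3.15, SE 0.49, adjusted p = 0.014). Counts per gene do not show which part of Lars2 the reads came from, and whether they were its messenger RNA was not tested. Of 8 nuclear long RNAs 5 fell, 4 of them past 2-fold, and none rose. Without Day 10 replicate A 1 rose, and thinned to 1000 UMIs per cell 3 of 7 fell, none past 2-fold. Among the falls was Kcnq1ot1 at 388 and 405 CPM at Day 7 and 178 and 194 CPM at Day 10 (log2 fold change -1.09, SE 0.07, adjusted p = 8.2e-07), while Malat1 had 19569.8 and 20513 CPM at Day 7 and 15766 and 18380.3 CPM at Day 10 and did not pass (adjusted p = 0.068; 0.023 by DESeq2). Without Gm42418, AY036118 and Lars2 in the fit, and likewise with only cells of at least 3000 UMIs, 14 histone genes fell and 3 rose. Thinned to 1000 UMIs per cell, 9 fell and 3 rose, and with 1 library left out 11 to 13 fell and 3 rose. Gm42418 did not pass with any 1 of the 4 libraries left out (adjusted p = 0.059 to 0.083). Lars2 did not pass with any 1 of the 4 libraries left out (adjusted p = 0.07 to 0.095).

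**Figure D4:**
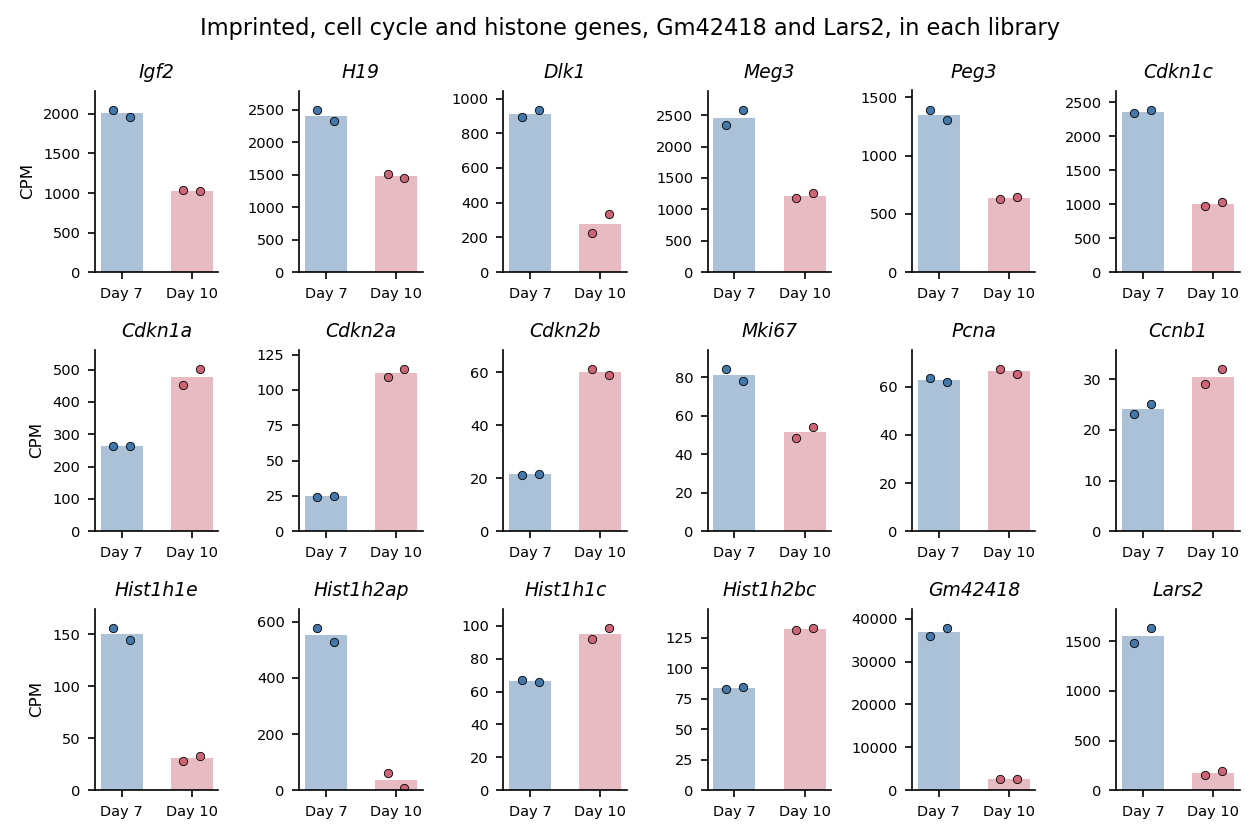
Level in CPM of 18 genes (imprinted, cell cycle and histone genes, Gm42418 and Lars2) in each library, with bars for the mean of a time point and points for replicates A and B, on a linear axis from 0 for each gene. The imprinted genes, Mki67, Hist1h1e, Gm42418 and Lars2 are lower in both Day 10 libraries, while Cdkn1a, Cdkn2a, Cdkn2b, Ccnb1, Hist1h1c and Hist1h2bc are higher in both.

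Coding and noncoding genes are given separately. Of 15778 protein-coding genes tested 4991 (31.6%) were higher and 4145 (26.3%) lower, with a median log2 fold change of 0.02. Of 3192 long noncoding genes 228 (7.14%) were higher and 989 (30.98%) lower, with a median of -0.34. Among genes with a mean of at least 10 CPM, 3351 of 8120 coding genes (41.3%) rose and 2079 (25.6%) fell, against 15 and 52 of 111 noncoding genes. Pantr1, a noncoding RNA, was among the 15 largest falls of genes that reached 10 CPM, at 19.9 and 22.1 CPM at Day 7 and 4.01 and 4.404 CPM at Day 10 (log2 fold change -2.32, SE 0.08, adjusted p = 2.9e-08).

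In energy metabolism, changes were mostly small. Of 39 genes of glycolysis and hypoxia response 6 rose and 21 fell, but 10 fell without Day 7 replicate B and 12 with every cell thinned to 1000 UMIs. Among the falls were genes that low oxygen induces. Car9, carbonic anhydrase 9, had 31.8 and 39.3 CPM at Day 7 and 12.9 and 13.6 CPM at Day 10 (log2 fold change -1.42, SE 0.09, adjusted p = 9.3e-06), Pdk1, which keeps pyruvate out of the mitochondrion, had 43.8 and 45.6 CPM at Day 7 and 25.5 and 25.3 CPM at Day 10 (log2 fold change -0.82, SE 0.06, adjusted p = 1.6e-06) and Bnip3, a mitophagy receptor, had 239 and 270.2 CPM at Day 7 and 159 and 161 CPM at Day 10 (log2 fold change -0.67, SE 0.07, adjusted p = 2.2e-05). Enzymes of glycolysis itself moved both ways, with rises in Pgam1 (log2 fold change 0.38, SE 0.08, adjusted p = 0.002) and Pkm (log2 fold change 0.45, SE 0.07, adjusted p = 0.00039) and a fall in Pfkfb3, which makes an activator of the pathway (log2 fold change -0.59, SE 0.07, adjusted p = 3.3e-05). Of 34 genes of oxidative phosphorylation 16 rose and 2 fell, none rising past 2-fold, and 1 fell without Day 10 replicate A, Day 7 replicate A or Day 7 replicate B. Cox5a, of complex IV, had 368 and 375 CPM at Day 7 and 517 and 537 CPM at Day 10 (log2 fold change 0.51, SE 0.07, adjusted p = 0.00019), and Uqcrc1, of complex III, had 87.9 and 86.4 CPM at Day 7 and 124 and 124 CPM at Day 10 (log2 fold change 0.51, SE 0.05, adjusted p = 1.3e-05). The 13 genes of the mitochondrial genome had 2 higher and 4 lower, with none higher without Day 10 replicate A, Day 7 replicate A or Day 7 replicate B. Under the cell limits of the study, or with all deposited barcodes, 4 were higher and 2 lower.

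Of 13 genes of lipid uptake and the adipogenic programme 8 rose and 3 fell, with a median of 0.50. Without the cells that carried macrophage markers, 7 of the lipid uptake and adipogenic genes rose and 5 fell, with a median of 0.32. Plin2, which coats lipid droplets, had 42.5 and 46.01 CPM at Day 7 and 82.2 and 80.2 CPM at Day 10 (log2 fold change 0.88, SE 0.11, adjusted p = 0.00049), while the fatty acid carriers Fabp5 and Fabp4 had 368 and 443 CPM at Day 7 and 195 and 179 CPM at Day 10 (log2 fold change -1.12, SE 0.09, adjusted p = 8.4e-06) and 28.9 and 32.2 CPM at Day 7 and 10.5 and 11.8 CPM at Day 10 (log2 fold change -1.45, SE 0.19, adjusted p = 0.0033). Cholesterol and fatty acid synthesis moved in both directions, with 9 of 25 higher and 7 lower, and 2 lower without Day 10 replicate B or Day 7 replicate A and 4 lower without Day 7 replicate B. In the unfolded protein and amino acid response 12 of 28 rose and 1 fell, Atf5 by 0.38 on the log2 scale. Oxidative stress genes rose for 10 of 15 and fell for 1. Hmox1, heme oxygenase, had 39.03 and 41.9 CPM at Day 7 and 79.3 and 74.9 CPM at Day 10 (log2 fold change 0.93, SE 0.12, adjusted p = 0.0012), and Gpx3, a secreted glutathione peroxidase, had 8.86 and 9.22 CPM at Day 7 and 19.6 and 21.3 CPM at Day 10 (log2 fold change 1.18, SE 0.06, adjusted p = 3.9e-07).

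Lysosomal genes rose almost throughout, 17 of 20 with none lower and none past 2-fold, at a median log2 fold change of 0.48. Lgmn, the protease legumain, had 36.2 and 38.7 CPM at Day 7 and 69.5 and 69.1 CPM at Day 10 (log2 fold change 0.89, SE 0.09, adjusted p = 5.9e-05) and Lamp1, a protein of the lysosomal membrane, had 217 and 213 CPM at Day 7 and 335 and 324 CPM at Day 10 (log2 fold change 0.61, SE 0.07, adjusted p = 3.6e-05). Macrophage genes rose at the same time. In the fit without the cells that carried macrophage markers, 17 of the 20 lysosome and autophagy genes were higher and the median was 0.49. In that fit 10 of the 17 macrophage genes still rose and 1 fell, with a median of 1.14, so it did not take out the rise of macrophage genes. The part of macrophages in the lysosomal rise was not tested.

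Macrophage genes rose from a low level. Of 17 members 12 rose, each past 2-fold, none fell, and the median log2 fold change was 1.79. By DESeq2, and likewise with only the 4 libraries of Day 7 and Day 10 fitted, 14 rose. The count moved with single libraries: 5 rose without Day 10 replicate A, 4 without Day 10 replicate B, 4 without Day 7 replicate A and 7 without Day 7 replicate B. With the replicate letter as a block 7 rose, and with the letters of Day 10 exchanged 6 rose, while the median of the macrophage list stayed between 1.48 and 2.12 in these fits. Cells with at least 5 UMIs over C1qa, C1qb, C1qc, Tyrobp and Fcer1g numbered 33 and 52 at Day 7 (0.245% and 0.426% of cells) and 137 and 195 at Day 10 (1.57% and 2.23%). This cut was made without thinning, while the median cell held 8878 and 10637 UMIs at Day 7 against 28420 and 27054 at Day 10. A shallower cell passes this cut less easily, so these shares were not compared at equal depth. Lyz2, lysozyme, had 5.53 and 7.04 CPM at Day 7 and 67.2 and 77.3 CPM at Day 10 (log2 fold change 3.52, SE 0.61, adjusted p = 0.019). Fcer1g, a signalling chain of Fc receptors, had 9.35 and 12.6 CPM at Day 7 and 38.4 and 47.5 CPM at Day 10 (log2 fold change 1.97, SE 0.37, adjusted p = 0.023), and Csf1r, the receptor on which macrophages depend, had 1.37 and 2.22 CPM at Day 7 and 5.69 and 7.097 CPM at Day 10 (log2 fold change 1.84, SE 0.43, adjusted p = 0.032). Trem2 had 2.56 and 3.43 CPM at Day 7 and 10.3 and 12.6 CPM at Day 10 (log2 fold change 1.94, SE 0.25, adjusted p = 0.0031). Lyz2 did not pass with any 1 of the 4 libraries left out (adjusted p = 0.089 to 0.13). Fcer1g did not pass with any 1 of the 4 libraries left out (adjusted p = 0.086 to 0.12). Csf1r did not pass with any 1 of the 4 libraries left out (adjusted p = 0.063 to 0.14). C1qa, C1qb and C1qc did not pass, C1qa at 3.23 and 4.76 CPM at Day 7 and 13.4 and 13.1 CPM at Day 10. Without those cells 10 members rose and 1 fell, 7 rose past 2-fold, and the median was 1.14.

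The osteoclast, the bone-resorbing relative of the macrophage, was represented by 14 tested genes of which 9 rose and 1 fell. Without Day 7 replicate A 5 rose, and without Day 7 replicate B 4 rose. Acp5, tartrate-resistant phosphatase, had 7.93 and 9.54 CPM at Day 7 and 22.5 and 40.7 CPM at Day 10 (log2 fold change 1.85, SE 0.37, adjusted p = 0.025), and Ctsk, the collagen-degrading cathepsin K, had 19.95 and 22.5 CPM at Day 7 and 35.4 and 52.4 CPM at Day 10 (log2 fold change 1.05, SE 0.24, adjusted p = 0.03). In both genes replicate B of Day 10 was well above replicate A. Acp5 did not pass without Day 7 replicate A (adjusted p = 0.14) or without Day 7 replicate B (adjusted p = 0.11). Ctsk did not pass without Day 7 replicate A (adjusted p = 0.15) or without Day 7 replicate B (adjusted p = 0.11). Without the cells with macrophage markers, 11 osteoclast genes remained testable, 7 were higher and 1 past 2-fold, with a median of 0.44 against 1.16, which was 0.76 for the osteoclast list without Day 10 replicate B. The factors that supply osteoclasts, made by the mesenchyme itself, all 4 rose. Csf1, the survival factor, had 30.95 and 31.02 CPM at Day 7 and 43.6 and 41.2 CPM at Day 10 (log2 fold change 0.45, SE 0.05, adjusted p = 4e-05), Tnfsf11, RANKL, had 2.92 and 2.23 CPM at Day 7 and 4.22 and 4.19 CPM at Day 10 (log2 fold change 0.71, SE 0.12, adjusted p = 0.00064), and its decoy Tnfrsf11b, osteoprotegerin, had 13.4 and 12.3 CPM at Day 7 and 25.01 and 25.2 CPM at Day 10 (log2 fold change 0.97, SE 0.06, adjusted p = 6.8e-07).

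Interferon and antigen presentation genes rose for 16 of 24 and fell for 1, with a median log2 fold change of 0.88. For interferon and antigen presentation the median was 0.58 without Day 10 replicate B. Ifitm3, an antiviral membrane protein, had 283 and 307 CPM at Day 7 and 636 and 608 CPM at Day 10 (log2 fold change 1.08, SE 0.08, adjusted p = 4.8e-06). Isg15, a ubiquitin-like modifier, had 7.02 and 5.56 CPM at Day 7 and 13.7 and 19.4 CPM at Day 10 (log2 fold change 1.39, SE 0.24, adjusted p = 0.012). Isg15 did not pass without Day 7 replicate B (adjusted p = 0.053). B2m and H2-D1, which present antigen, rose by 0.66 and 0.94 on the log2 scale, and Bst2, tetherin, had 22.9 and 18.95 CPM at Day 7 and 42.6 and 41.7 CPM at Day 10 (log2 fold change 1.01, SE 0.08, adjusted p = 7.3e-06). Without the cells with macrophage markers 15 of the 24 rose, 1 fell and the median was 0.63. Complement and chemokine genes rose for 15 of 23 and fell for 3 (1 without Day 10 replicate B or Day 7 replicate B), and without those cells 15 rose and 2 fell. Cxcl5 had 2.44 and 2.33 CPM at Day 7 and 16.7 and 11.5 CPM at Day 10 (log2 fold change 2.56, SE 0.19, adjusted p = 0.0002), Cxcl1 had 4.43 and 4.62 CPM at Day 7 and 14.4 and 14.7 CPM at Day 10 (log2 fold change 1.68, SE 0.08, adjusted p = 1.4e-07), and Cxcl12, the stromal chemokine, had 42.96 and 44.4 CPM at Day 7 and 89.5 and 92.04 CPM at Day 10 (log2 fold change 1.05, SE 0.05, adjusted p = 1.7e-07). Genes that cells induce when they are freed from tissue rose too, 19 of 27 with none lower at a median of 0.32, and their part in these rises was not tested. Among them Cebpd had 41.7 and 43.9 CPM at Day 7 and 70.3 and 70.9 CPM at Day 10 (log2 fold change 0.72, SE 0.05, adjusted p = 2.1e-06) and Junb 198 and 214 CPM at Day 7 and 291 and 332 CPM at Day 10 (log2 fold change 0.59, SE 0.09, adjusted p = 0.00032).

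A minority of skeletal muscle genes fell, from a low level. Of 25 sarcomere genes 9 fell, each past 2-fold, and 1 rose, with a median log2 fold change of -2.69. DESeq2 called 18 of the 25 lower. Without Day 7 replicate A the median of the sarcomere list was -1.21, and with 1 library left out 7 to 12 members fell. Ttn, titin, the giant spring of the sarcomere, had 10.3 and 10.2 CPM at Day 7 and 0.1296 and 1.05 CPM at Day 10 (log2 fold change -4.13, SE 0.77, adjusted p = 0.024), and Myh3, the embryonic myosin heavy chain, had 4.59 and 4.401 CPM at Day 7 and 0.00836 and 0.411 CPM at Day 10 (log2 fold change -4.44, SE 0.84, adjusted p = 0.024). The Day 7 replicates lay apart: the summed level was 309 CPM in Day 7 replicate A but 117 CPM in replicate B, against 52.01 and 87.4 CPM at Day 10, and Tnnt1 at 19.99 and 4.75 CPM at Day 7 and 2.404 and 4.18 CPM at Day 10 is an example that did not pass (log2 fold change -1.92, SE 0.89, adjusted p = 0.17), though it did by DESeq2 and without Day 7 replicate B (adjusted p = 0.040). Ttn no longer passed when the replicate letter was a block (adjusted p = 0.073) or when only the 4 libraries were fitted (adjusted p = 0.077). Ttn did not pass without Day 7 replicate A (adjusted p = 0.11) or without Day 7 replicate B (adjusted p = 0.1). Myh3 did not pass without Day 7 replicate A (adjusted p = 0.11) or without Day 7 replicate B (adjusted p = 0.1). Myom1, a protein of the sarcomere's M band that mesenchymal cells also carry, was the higher member (log2 fold change 0.49, SE 0.08, adjusted p = 0.00039). Myf5, a factor of muscle commitment, fell from under 0.5 CPM (log2 fold change -2.67, SE 0.20, adjusted p = 3.1e-06). It is one of 15 genes of myogenic commitment and fusion, of which 5 fell and 1 rose, with summed levels of 54.8 and 40.7 CPM at Day 7 and 52.1 and 50.04 CPM at Day 10. Without Day 10 replicate A, without Day 7 replicate A or with the replicate letter as a block 2 of them fell, and 8 by DESeq2.

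Contractile genes of the smooth muscle and myofibroblast type went the other way, with 17 of 24 higher and 1 lower, none past 2-fold, and a median log2 fold change of 0.33. Acta2, smooth muscle actin, had 1333 and 1453 CPM at Day 7 and 2519.9 and 2422 CPM at Day 10 (log2 fold change 0.83, SE 0.13, adjusted p = 0.001). Tagln, transgelin, had 1193 and 1265 CPM at Day 7 and 1821 and 1833 CPM at Day 10 (log2 fold change 0.57, SE 0.08, adjusted p = 0.00014) and Actg2, enteric smooth muscle actin, had 63.8 and 81.2 CPM at Day 7 and 136 and 148 CPM at Day 10 (log2 fold change 0.97, SE 0.12, adjusted p = 0.00099). Tpm2 and Myl9 rose by 0.69 and 0.62 on the log2 scale. Serum response factor binds the CArG box, which stood in 1.66% of tested genes with a promoter and in 4 of the 15 contractile genes with one that rose (26.7%).

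Of the CCN matricellular proteins, some of them targets of the YAP co-activator, 4 are given with their values. Ccn5 had 49.04 and 50.8 CPM at Day 7 and 128 and 122 CPM at Day 10 (log2 fold change 1.33, SE 0.05, adjusted p = 8.3e-08), Ccn4 had 84.4 and 84.5 CPM at Day 7 and 159 and 150.2 CPM at Day 10 (log2 fold change 0.87, SE 0.08, adjusted p = 1.2e-05), Ccn1 had 245 and 246 CPM at Day 7 and 402 and 373 CPM at Day 10 (log2 fold change 0.66, SE 0.06, adjusted p = 9.2e-06) and Ccn3 had 5.08 and 5.74 CPM at Day 7 and 11.3 and 10.02 CPM at Day 10 (log2 fold change 0.98, SE 0.09, adjusted p = 7.7e-06). Other YAP effectors were mixed, so that 9 of 17 genes of the list rose and 3 fell. TEAD factors, the DNA-binding partners of YAP, read CATTCC, or GGAATG on the other strand. This motif stood in 15.2% of tested genes with a promoter and in 10 of the 11 list genes with one.

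Ccn1, chr3:145649986-145650145, minus strand: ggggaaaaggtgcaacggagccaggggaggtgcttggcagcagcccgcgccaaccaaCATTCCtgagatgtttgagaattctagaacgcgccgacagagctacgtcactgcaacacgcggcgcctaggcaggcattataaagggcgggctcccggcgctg

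In this stretch before the start of Ccn1, shown because Ccn1 is a well-known YAP target that rose, the capitals mark the match at -103.

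Vessel and nerve genes were few. Of 10 endothelial genes tested 3 rose and 1 fell, their summed level staying between 42.3 and 45.03 CPM. Kdr, the main VEGF receptor, was under 1 CPM in all 4 libraries and rose from that floor (log2 fold change 1.37, SE 0.32, adjusted p = 0.006), but it did not pass without the cells with macrophage markers (log2 fold change 0.68, adjusted p = 0.078). Without those cells 2 of the 10 endothelial genes rose and 1 fell. Of 14 genes of the VEGF and angiopoietin axis 8 rose and 1 fell, and without those cells 6 rose and 1 fell. Of 11 neural and glial genes 2 rose and 5 fell. S100b, which cartilage makes as well as glia, had 151 and 156 CPM at Day 7 and 61.8 and 65.4 CPM at Day 10 (log2 fold change -1.27, SE 0.06, adjusted p = 2.1e-07). Stmn2, a neuronal tubulin regulator that the study also used to annotate osteoblasts, had 19.2 and 20.4 CPM at Day 7 and 70.99 and 49.02 CPM at Day 10 (log2 fold change 1.602, SE 0.28, adjusted p = 0.017). Stmn2 did not pass without Day 7 replicate A (adjusted p = 0.11) or without Day 7 replicate B (adjusted p = 0.099).

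With every cell thinned to 1000 UMIs, 13708 genes were testable and 4859 of them called, 2563 higher and 2296 lower. Thinned counts of lists are to be read against these counts over all genes, which are lower shares than in the main fit. Thinning lowers the depth per cell and the total of each library. It also gives every cell the same weight in the sum, where a deep cell otherwise counts for more. The separate parts of these changes were not tested. In signalling, 5 of 15 BMP antagonists rose and 3 fell, and 2 of 21 TGF-beta and activin signalling genes rose and 4 fell, their median turning from 0.10 to -0.23. Of FGF genes 3 of 27 rose and 6 fell, of WNT ligands and receptors 5 of 27 rose and 4 fell, and of Notch genes 2 of 13 rose and 1 fell. Cell cycle arrest turned from more rises to more falls, with 8 of 24 genes higher and 9 lower. Of genes of glycosaminoglycan synthesis 5 of 44 rose and 13 fell, and of joint genes 4 of 21 rose and 8 fell. YAP effectors rose for 5 of 17 and fell for 2, genes of the dissociation response rose for 10 of 27 and fell for 1, and complement and chemokine genes rose for 9 of 19 and fell for 1. Cholesterol and fatty acid synthesis had 4 of 24 higher and 4 lower, lipid uptake 5 of 11 and 2, the VEGF axis 4 of 12 and none, and the osteoclast list 5 of 10 and none. The thinned lower counts were 19 of 24 for cartilage matrix and 19 of 26 for imprinted genes, with 1 and none higher. Of 225 genes named and testable when thinned, 18 no longer passed: Col1a1, Runx2, Tnmd, Foxa2, Fgfr3, Ptch1, Dusp6, Dkk3, Wnt5a, Hoxa7, Hoxd10, Sgce, Nap1l5, Mirg, Ttn, Myh3, Myom1 and Epcam.

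Because the median cell held more UMIs at Day 10, the share of cells with at least 1 UMI of a gene was set out at an equal 1000 UMIs per cell. The exact 95% binomial intervals cover counting error only. Macrophage-marker cells, which should lack the matrix genes, had a median of 28431 and 24702 UMIs at Day 7 and 20624 and 20887 at Day 10 before thinning. Ibsp was found in 0.334% (0.244 to 0.446) and 0.270% (0.186 to 0.380) of cells at Day 7 and in 5.19% (4.74 to 5.68) and 6.09% (5.60 to 6.61) at Day 10, against 0.730% and 3.59% of the macrophage-marker cells of Day 10 and 0% of the 33 and 52 of Day 7. Without thinning these shares of Ibsp were 1.84%, 1.73%, 26.8% and 28.8%. Alpl was found in 2.96% and 2.51% of cells at Day 7 and in 7.94% and 8.52% at Day 10 (unthinned 16.6%, 15.4%, 38.6% and 39.02%). For Alpl, the Day 7 macrophage-marker cells gave 3.03% in replicate A and 0% in replicate B, against 0% and 2.56% in those of Day 10, so its share in Day 7 replicate A was no higher than theirs. At the same depth per cell, both genes were found in more cells at Day 10.

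Col2a1 was found in 87.1% and 82.3% of cells at Day 7 and in 55.4% and 55.9% at Day 10, against 57.6%, 42.3%, 33.6% and 36.9% of the macrophage-marker cells, so UMIs of Col2a1 were found in a large share of cells that should lack it. Unthinned, Col2a1 was found in 99.4% or more of cells in all 4 libraries. Bgn was found in 43.1% and 37.9% of thinned cells at Day 7 and in 68.1% and 61.6% at Day 10, with 36.4%, 13.5%, 15.3% and 23.1% in the macrophage-marker cells and 82.3%, 79.4%, 98.1% and 96.4% unthinned. Cdkn2a was found in 1.44% and 1.79% at Day 7 and in 7.54% and 7.19% at Day 10 (unthinned 10.2%, 10.8%, 46.5% and 44.4%), with 0%, 0%, 0.730% and 2.05% in the macrophage-marker cells. Dlk1 had shares of 37.2% and 36.4% at Day 7 and of 11.8% and 14.6% at Day 10 (unthinned 68.3%, 68.04%, 43.98% and 45.3%), with 12.1%, 7.69%, 6.57% and 3.08% in the macrophage-marker cells. The plot of shares shows these at 1000 UMIs per cell.

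**Figure D5:**
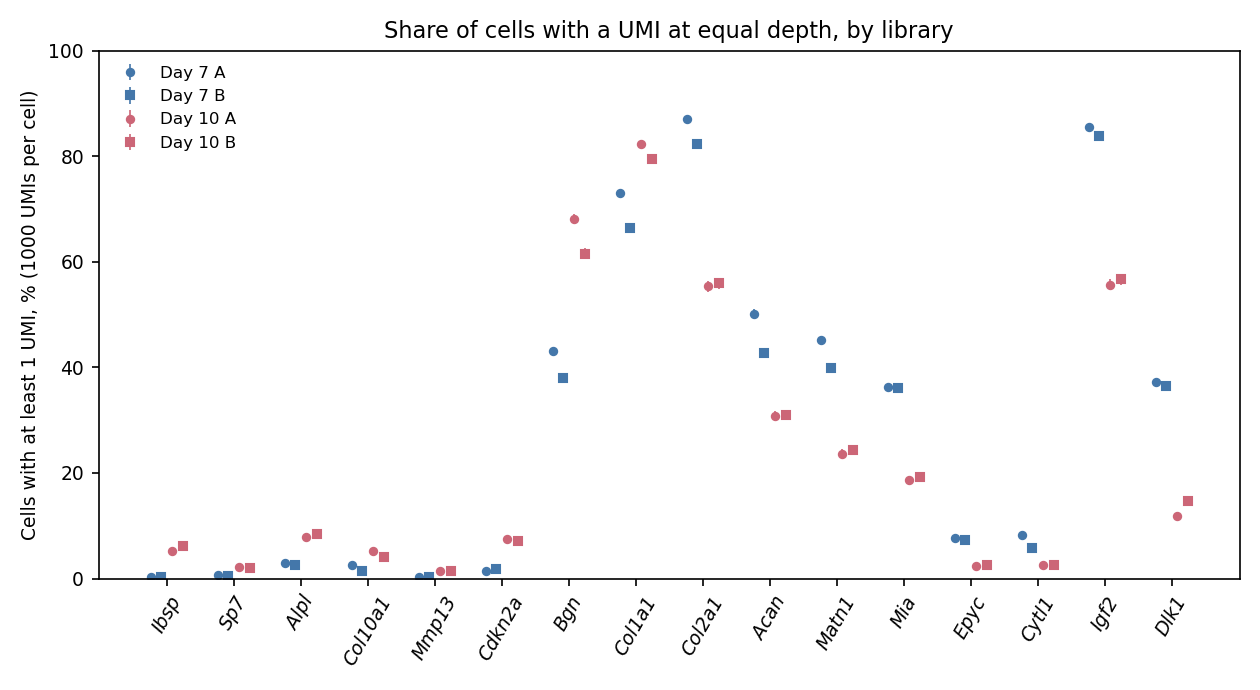
Percentage of cells in which each of 16 genes had a UMI, by library, once all cells had been reduced to 1000 UMIs (bars, 95% exact binomial interval). The 6 genes at the left, from Ibsp to Cdkn2a, and Bgn and Col1a1 are higher in both Day 10 libraries (circles and squares for replicates A and B), and Col2a1, Igf2 and Dlk1 are among those lower in both.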

How the data were processed

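Single-cell RNA was measured by 10x 3′ libraries of 6 cultures, replicates A and B of Days 2, 7 and 10. The deposited values were UMI counts per gene and barcode, which the authors made with Cell Ranger 6.1.2 and STAR on mouse build GRCm38, per the submitters' processing notes. Counts were summed per library over barcodes with at least 1000 UMIs, 200 to 7500 genes and at most 25% of UMIs from mitochondrial genes, without a doublet caller, so doublets stay in the sums. All 6 libraries were fitted by edgeR 4.0.16 (R 4.3.3; TMM factors, filterByExpr, robust quasi-likelihood test, no replicate term), with the contrast Day 10 minus Day 7 and Benjamini-Hochberg adjustment over the 18988 genes tested of 26590 with a UMI. Residual degrees of freedom were 3, since each time point has 2 libraries. The Day 7 and Day 10 libraries held 204993192 to 254463501 UMIs each in the cells kept. The fit of all 6 libraries gave a common biological coefficient of variation of 0.0684. On simulated counts, 96% of genes raised 2-fold and 85.4% of genes lowered 2-fold were called. Replicate letters did not pair the cultures, and the replicates differed by more than counting noise.

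The members and the 66 lists were chosen with earlier results of these data known, and described by counts and medians without a set test. Genes to name were drawn from the 15 largest changes in each direction among called genes without overlap that reached 10 CPM. The first 3 of each list and its 6 largest called changes in each direction at that level were added, 533 genes in all. The text names 227 genes, and no rule set which of the 533 it left out. Chosen after their values were seen were Trps1, Matn2, Hist1h2ap, Nap1l5, Bglap2, Bglap3, Kif11, C1qb and C1qc, the 2-fold limit, and the alternatives without macrophage-marker cells, without Gm42418, AY036118 and Lars2, and with the replicate letters of Day 10 exchanged. DESeq2 1.42.0, other scalings, filters, cell limits and left-out libraries were the other alternatives. Some genes are not reported here. Gene positions are from GENCODE release 21, promoters from the RefSeq table of GRCm38.p6.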

Additional observations from a re-analysis of the deposited data

How the results depend on the processing

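Over 19 alternatives, 4150 of 4290 recomputed values of the genes named kept their direction and their side of the threshold. Testing only genes with at least 10 CPM in 2 libraries, 8742 genes by construction, gave 5936 calls, 2900 higher and 3036 lower, with 78 and 181 past 2-fold. Thinning every cell to 1000 UMIs, which left 13708 genes to test, gave 4859 calls, 2563 higher and 2296 lower, with 407 and 474 past 2-fold, and 18 of 225 genes named then did not pass. All calls together stayed within 1.5 times the counts reported under the other alternatives, and leaving out 1 library, with the other of its time point assumed to vary like the rest, gave 7526 to 8228. With the replicate letter as a block, a pairing the data did not bear out (correlations of deviations from -0.285 to -0.033), 5058 genes were higher and 4955 lower, and with the letters of Day 10 exchanged, 5065 and 4962. Ttn, Myh3, Lyz2, Fcer1g and Csf1r did not pass with the block. Directions turned in 6 of the genes named, none of which had passed. Thinned, the log2 fold changes were -0.030 for Hoxa13, -0.29 for Hoxd12, -0.14 for Hoxd13, -0.22 for Trps1 and 0.088 for Malat1. With the 10 CPM filter they were -0.026 for Hoxd13 and -0.052 for Trps1. With 1 library left out they ranged from -0.14 to 0.20 for Hoxd13, from -0.057 to 0.087 for Trps1 and from -0.23 to 0.065 for Matn2. The causes were not tested. Depth limits the precision of low genes, such as Ifitm5 with 38 and 46 UMIs at Day 7.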

Other observations

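Genes outside the programmes above were also among the 15 largest falls of genes that reached 10 CPM. Angptl1, an angiopoietin-like secreted protein of mesenchyme, had 55.7 and 67.8 CPM at Day 7 and 8.89 and 9.45 CPM at Day 10 (log2 fold change -2.75, SE 0.10, adjusted p = 1.3e-06). A2m, a protease-trapping plasma protein also made by cartilage, had 23.95 and 25.5 CPM at Day 7 and 5.95 and 4.65 CPM at Day 10 (log2 fold change -2.22, SE 0.11, adjusted p = 1.8e-06), and Bex2 had 17.9 and 19.1 CPM at Day 7 and 4.04 and 3.92 CPM at Day 10 (log2 fold change -2.21, SE 0.06, adjusted p = 1.2e-08). Among 15 forkhead factors 3 rose and 6 fell. Foxd1 had 7.68 and 7.78 CPM at Day 7 and 14.2 and 18.9 CPM at Day 10 (log2 fold change 1.097, SE 0.13, adjusted p = 0.00068) and Foxp1 had 133 and 146 CPM at Day 7 and 198 and 182 CPM at Day 10 (log2 fold change 0.44, SE 0.06, adjusted p = 0.00021). Circadian clock genes moved in both directions, 4 of 15 higher and 6 lower, 1 of the falls past 2-fold. With every cell thinned to 1000 UMIs, 2 were higher and 2 lower. Among the higher members was Nr1d1, at 5.47 and 5.24 CPM at Day 7 and 8.15 and 8.495 CPM at Day 10 (log2 fold change 0.63, SE 0.07, adjusted p = 4e-05).

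Genes of cell condensation and adhesion, which gather mesenchyme before it forms cartilage, rose for 8 of 20 and fell for 7. With every cell thinned to 1000 UMIs 2 rose and 6 fell, and 3, 3 and 2 fell without Day 10 replicate B, Day 7 replicate A and Day 7 replicate B. Fn1, fibronectin, had 810.2 and 739 CPM at Day 7 and 1204 and 1121 CPM at Day 10 (log2 fold change 0.59, SE 0.07, adjusted p = 6.7e-05). Efnb2, an ephrin, had 42.7 and 42.7 CPM at Day 7 and 23.2 and 21.6 CPM at Day 10 and fell (log2 fold change -0.93, SE 0.05, adjusted p = 5.8e-07). Of 11 surface epithelium genes 1 rose and 3 fell, with summed levels of 54.7 and 52.1 CPM at Day 7 and 46.2 and 51.9 CPM at Day 10, and none of the 8 testable when thinned passed. The single rise was not called without Day 10 replicate B, Day 7 replicate A or Day 7 replicate B. Epcam had 0.593 and 0.443 CPM at Day 7 and 0.2299 and 0.312 CPM at Day 10 and fell (log2 fold change -0.94, SE 0.22, adjusted p = 0.0038). The basal keratin Krt14 had 3.93 and 0.358 CPM at Day 7 and 0.00418 and 0.00433 CPM at Day 10, so nearly all of it came from Day 7 replicate A and its change did not pass (log2 fold change -8.799, SE 2.66, adjusted p = 0.071). Krt14 passed by DESeq2 and without either Day 7 library (adjusted p = 0.0066 without replicate A and 0.0075 without replicate B).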
